A study of Mus musculus with 4 samples.

Results

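The nucleolar factors that build ribosomes were examined as a set in mouse embryonic stem cells labelled with a knockdown of Eif4a2, an RNA helicase of translation initiation. The set was given as a list of 53 gene symbols, and its members were the rows of the expression table that carry one of them. Rows were found for 52, and all 52 passed the filter on low counts, out of 32592 genes in the table and 14890 tested; Noc2l, a factor of large subunit assembly, was not analysed here. The members were placed in 3 steps. There were 6 proteins of the box C/D small nucleolar ribonucleoprotein (snoRNP) and of the nucleolar scaffold, 28 of small subunit assembly and 18 of large subunit assembly.

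Poly(A) RNA was sequenced from CCE cells, an embryonic stem cell line of strain 129/Sv that was kept without feeder cells and with leukemia inhibitory factor. There were 2 libraries labelled knockdown, from cells infected with shRNAs against Eif4a2, and 2 labelled control, from cells infected with control shRNAs. The protocol names the hairpins sheIF4A2-2 and sheIF4A2-3 and the controls shLuc and shEV, without saying which library received which. All cells, the controls too, carried an shRNA and passed through 3 days of selection in 1 µg/mL puromycin before they were collected on day 4.5. Levels are given as normalized counts, that is, reads scaled by an effective library size. The labels do not state whether the 2 libraries of a group are separate cultures, and the p-values therefore reflect the spread among these 4 libraries alone, which may be technical. The libraries labelled knockdown are called knockdown 1 and 2, and the others control 1 and 2.

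Ribosomes are made in the nucleolus. RNA polymerase I transcribes a long precursor RNA there, box C/D snoRNPs guide the methylation of its riboses, and the U3 snoRNP with the UTP complexes folds it into the small subunit processome, in which the precursor is cut. The large subunit is assembled on the other side of that cut, from early particles that hold the PeBoW complex to late ones that are exported with the adaptor Nmd3. Fast-dividing cells such as embryonic stem cells make these factors in large amounts, and many of their genes are known targets of the transcription factor MYC, which binds the E-box CACGTG.

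The targeted transcript went against the labels. Eif4a2 was at 752 and 814 normalized counts in knockdown 1 and 2, compared with 531 and 379 in control 1 and 2 (log2 change 0.80, SE 0.15, limma adjusted p = 0.014; 0.0581 without a variance trend in limma). Directions below follow the labels, so lower means lower in the libraries labelled knockdown. Whether labels or columns were exchanged was not tested, and an exchange would turn each fall below into a rise. The libraries held 4604200 to 13681765 reads, and control 2 was the shallowest. Defining markers of embryonic stem cells summed to 9002 to 9376 normalized counts under the knockdown label and to 11990 to 12430 under the control label, with 4 of 10 lower by the test. Fibroblast markers summed to 56.6 to 61.5 against 34.9 to 35, with 2 of the 6 tested higher and Dcn and Lum at 0 in every library, and those of trophectoderm to 47.7 to 49.5 against 37.8 to 40 (1 of 6 higher, Elf5 at 0). Neural markers summed to 109 to 113 against 132 to 137 (2 of 5 lower and 1 higher), those of primitive endoderm overlapped between the groups, and the part of these shifts in the results below was not tested.

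Transcripts of 16 ribosome biogenesis factors were lower in the libraries labelled knockdown, by 1.24-fold to 1.66-fold, and those of the other 36 did not pass the test. By limma on log2(normalized counts + 1), with Benjamini-Hochberg adjustment over all genes and a threshold of 0.05, 16 of the 52 members fell and 0 rose. At an unadjusted p below 0.05, 22 members were lower and 0 higher, beside 3010 and 2763 of all 14890 genes tested. By edgeR on the recovered reads 17 members fell and 0 rose, beside 1958 and 1784 of all genes. By DESeq2 on the same reads 14 members fell and 0 rose, beside 1252 and 967 of all genes. By limma with adjustment, 12.4% of all genes fell and 10.5% rose, against 30.8% and 0% of the members. The median log2 change of the members was -0.23, that is 1.17-fold lower, beside -0.01 over all genes. The fitted change was below 0 for 44 members and for 51.2% of all genes. It reached -0.73 in Rcl1, and no member fell 2-fold. In bulk RNA a smaller share of cells that express a gene and less RNA per cell cannot be told apart.

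By step, the small subunit factors had the largest share of falls, with 11 of 28 (median log2 change -0.25). The large subunit factors followed with 4 of 18 (median -0.18), and of the snoRNP and scaffold proteins 1 of 6 fell (median -0.32). These shares are 39.3%, 22.2% and 16.7%, beside 12.4% of all genes, and the last is near it. The median GC content was 47.45% in the small subunit factors, 50.08% in the large and 46.65% in the snoRNP and scaffold proteins. The log2 change rose with GC content, as given below. The difference between steps was not tested, nor was the part of GC content in it. Both libraries labelled knockdown lay below both controls for 37 members, above both for 4 and overlapped them for 11, while 34.6% and 32.1% of all genes lay apart below and above. An exact permutation test of 2 libraries against 2 has 6 relabelings and cannot give a two-sided p below 2 in 6, so each call rests on the variance shared across genes. Without a variance trend in limma, the call held for Bysl, Rcl1 and Wdr3, and for the other 13 the adjusted p lay between 0.0527 and 0.109, where 5.8% of all genes fell and 7.17% rose.

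**Figure D1:**
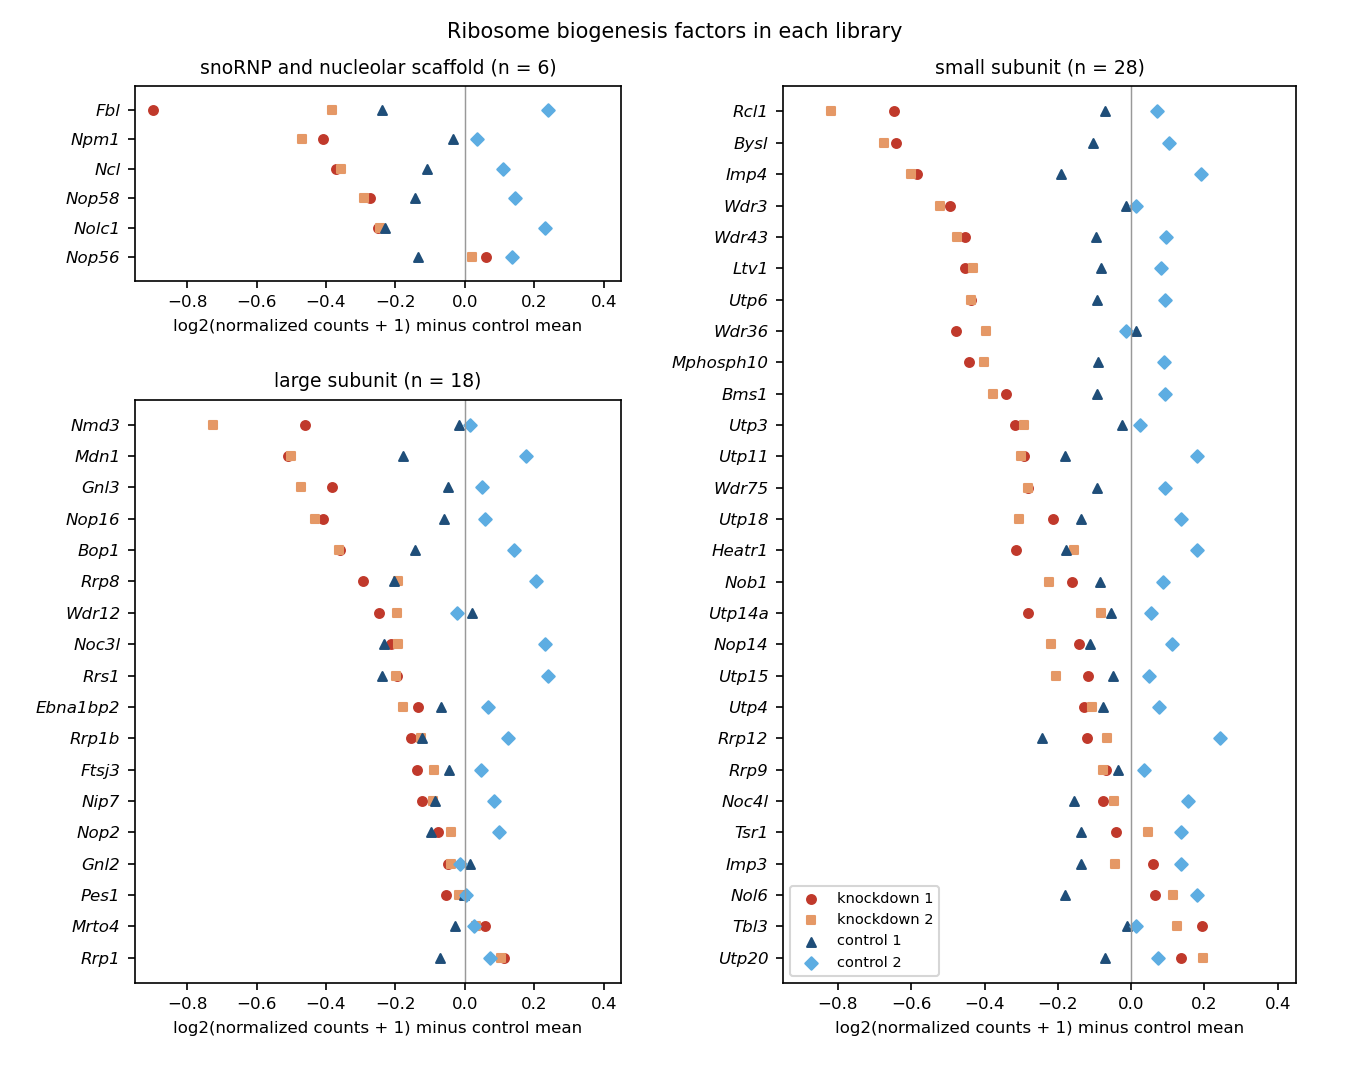
Each row is a factor, and its 4 points are the libraries, placed by log2(normalized counts + 1) minus the mean of the 2 controls and grouped in panels by step. The knockdown points (red circles and orange squares) lie left of both control points (blue) for 37 of 52 factors, and control 2 is the highest library for 45.

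The 2 controls differed mostly in the same direction in these genes. Control 2 was above control 1 in 49 of the 52 members, where 46.8% of all genes had it so. The median difference was 0.185 on the log2 scale in the members and -0.0234 over all genes tested. In absolute log2 value, the controls differed by a median of 0.185 in the members and 0.198 over all genes tested. The libraries labelled knockdown differed from each other by a median of 0.0358 in the members and 0.0955 over all genes tested. Summed over the members, the level was 9509 and 9538 normalized counts in knockdown 1 and 2, 10670 in control 1 and 12330 in control 2. Both knockdown sums thus stood below both control sums, and control 2 stood highest in 45 members and lowest in 0. Without control 2, 20 members fell and 4 rose (Nol6, Nop56, Rrp1 and Utp20), with a median of -0.11, where 24.4% of all genes fell and 21.3% rose. Without control 1, 41 fell and 0 rose in limma, with a median of -0.38, where 26.5% of all genes fell and 25.4% rose. Without knockdown 1, the fall passed for Bysl, Nmd3 and Rcl1, and for the other 13 the limma adjusted p lay between 0.0756 and 0.298; 4.39% of all genes fell and 3.3% rose. Without knockdown 2 it passed for Bysl and Rcl1 and lay between 0.105 and 0.305 for the other 14, with 2.65% of all genes lower and 1.74% higher. All 16 kept their direction without each library in turn. That outcome was fixed in advance, since both libraries labelled knockdown lay below both controls in each of the 16.

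The E-box of MYC was looked for in the promoters, because it is the textbook motif of these genes. A window of 250 bases before and 50 after the gene start was found in RefSeq (GRCm38.p6) for 41 members, and 11 of them held CACGTG, which reads the same on both strands. That is 26.8% of those members, beside 11.9% of the tested genes with a window and 8.09% of all genes with one. It was present in 5 of the 13 members that fell and have a window (Imp4, Ltv1, Mdn1, Nmd3 and Wdr43) and in 6 of the 28 that were not called (Nop2, Pes1, Tsr1, Utp4, Utp18 and Utp20). In Mdn1, Utp4, Ltv1, Utp20, Pes1, Tsr1 and Wdr43 the E-box lies at or after the RefSeq start. In Nop2, whose stretch is not shown, it lies 60 bases upstream. In Nmd3, Imp4 and Utp18, described below with their values, it also lies upstream of the RefSeq start, 114, 121 and 20 bases before it. The gene starts of GENCODE, from which the coordinates of genes are given below, differ in Nmd3 and Imp4, and from them the distance is 44, 143 and 20 bases, so that the stretch of Nmd3 runs past the GENCODE start. The stretches below show it in capitals with up to 60 bases on either side, 5′ to 3′ on the strand of the gene. They end 48, 55 and 0 bases short of the last base before the RefSeq start in Nmd3, Imp4 and Utp18:
Nmd3, chr3:69721881-69722006 (plus strand): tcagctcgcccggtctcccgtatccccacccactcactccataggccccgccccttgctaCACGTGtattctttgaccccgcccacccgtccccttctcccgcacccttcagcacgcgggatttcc
Imp4, chr1:34439648-34439773 (plus strand): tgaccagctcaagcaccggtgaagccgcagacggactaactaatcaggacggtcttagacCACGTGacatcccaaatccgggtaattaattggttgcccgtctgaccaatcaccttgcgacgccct
Utp18, chr11:93885767-93885846 (minus strand): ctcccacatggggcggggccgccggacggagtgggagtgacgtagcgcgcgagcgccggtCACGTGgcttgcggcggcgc
The first pair belongs to genes that fell and the last to one that did not pass. Of other motifs, searched on both strands, the ETS core CCGGAAG was in 34.1% of the members' windows and 19.1% of those of tested genes, and AAGATGG, part of the YY1 motif, in 7.32% and 8.1%. A match is a description of the letters and not a bound site.

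Of the snoRNP and scaffold proteins, Npm1 fell. Npm1 (ENSMUSG00000057113, chromosome 11, 33152287 to 33163206, minus strand, GRCm38) encodes nucleophosmin, an abundant protein of the granular part of the nucleolus. It was at 819.7 and 786 normalized counts in knockdown 1 and 2, compared with 1063 and 1115 in control 1 and 2, and the groups did not overlap. It fell 1.36-fold (log2 change -0.44, SE 0.08, limma adjusted p = 0.014), and with the dependence on GC content removed it did not pass (0.0623). Ncl encodes nucleolin, which binds the precursor RNA and rDNA chromatin. Its values were 2178 and 2199 against 2612 and 3039, apart in all libraries but just short of the threshold (log2 change -0.36, SE 0.11, limma adjusted p = 0.0529). Ncl passed by edgeR and DESeq2 on the recovered reads (adjusted p = 0.0431 and 0.0213), but with GC removed its log2 change was -0.24 (limma adjusted p = 0.247) and with library size only it was -0.24 (0.0963). Nolc1, a chaperone of snoRNPs, was at 373 and 374 against 378 and 521, where control 1 sat beside the libraries labelled knockdown and control 2 stood above them (log2 change -0.25, SE 0.14, limma adjusted p = 0.245).

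The core of the box C/D snoRNP had no member that passed. Nop58, a scaffold protein of the particle, was at 255 and 252 against 279 and 341, below both controls (log2 change -0.28, SE 0.11, limma adjusted p = 0.0968). Its paralog Nop56 was at 237 and 231 against 207 and 249.6, so the controls lay on either side of the other libraries (log2 change 0.04, SE 0.10, 95% interval -0.20 to 0.29). Fbl encodes fibrillarin, the methyltransferase of the particle, and its row held only 7.37 and 11 against 12.2 and 17.4 normalized counts, with no overlap (log2 change -0.64, SE 0.24, limma adjusted p = 0.0969). That row is uncertain, since 59.9% of the 100-base windows of its longest protein-coding transcript occur letter for letter in transcripts of other genes. Among these are the protein-coding gene Tulp4, which shares the most windows, and the processed pseudogene Gm5812. For Nop56 and Npm1 the share was 32% and 22.1%, and their reads are uncertain too.

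**Figure D2:**
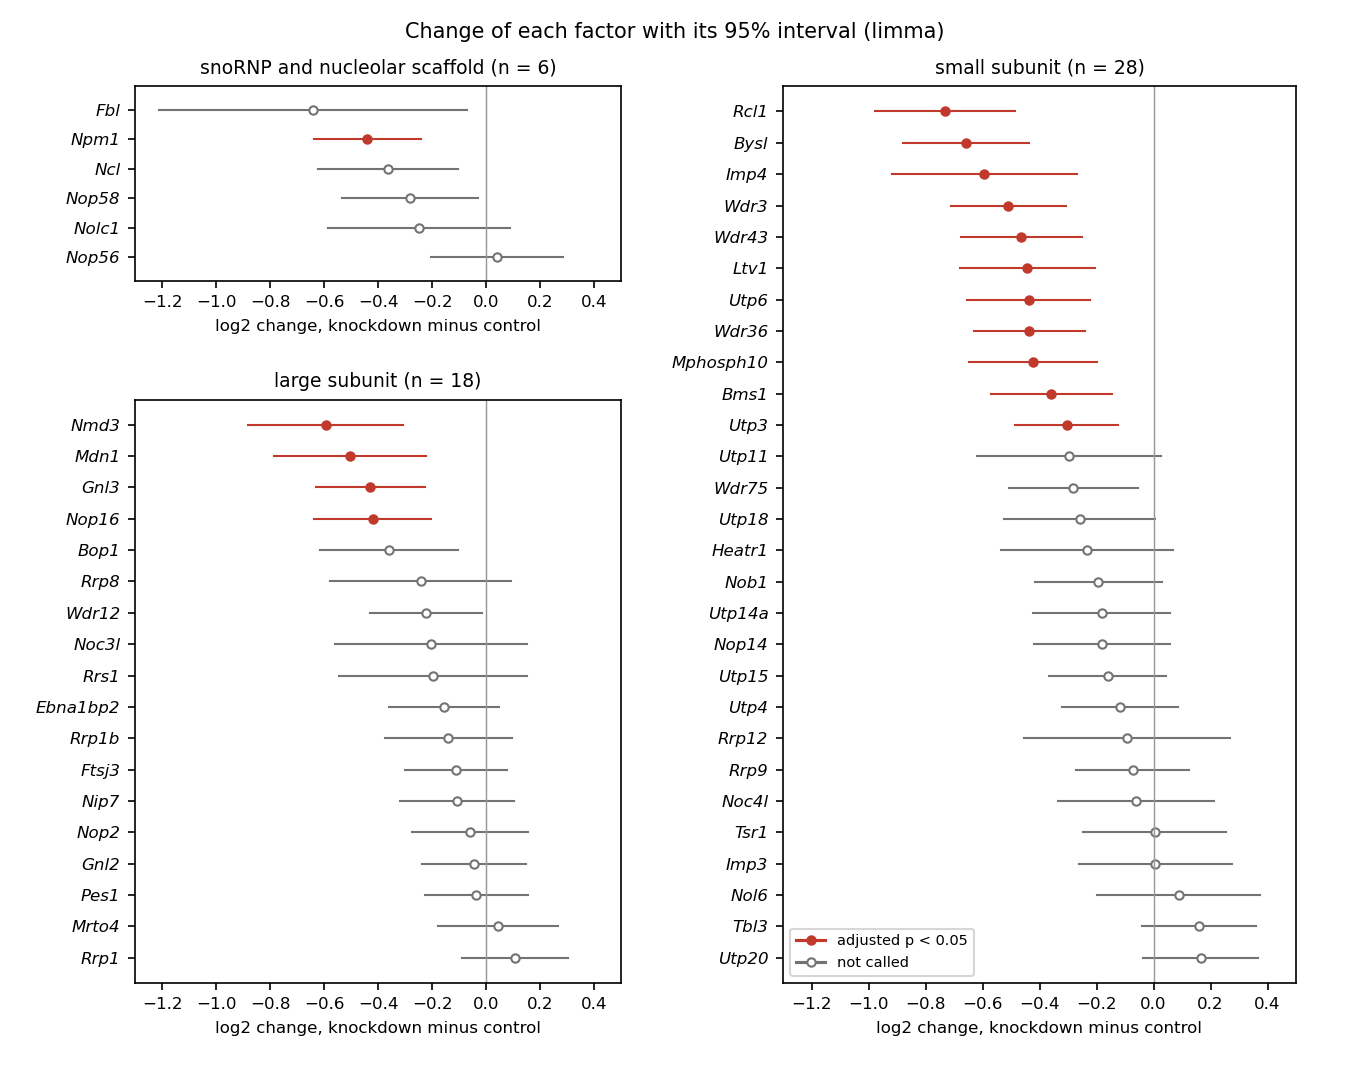
Points are log2 changes between the libraries labelled knockdown and control, from limma on log2(normalized counts + 1), with bars for the 95% interval and filled points for an adjusted p below 0.05. The 16 filled points lie between -0.73 and -0.30, 11 of them in the small subunit panel, and no filled point lies right of 0.

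UTP-A is the complex that first binds the 5′ end of the precursor RNA, and Wdr43 was the one of its 5 members that fell. That is 20%, beside the 12.4% of all genes that fell. Wdr43 was at 213 and 210.3 normalized counts in knockdown 1 and 2, compared with 274 and 313 in control 1 and 2. These values did not overlap, and the difference was 1.38-fold (log2 change -0.46, SE 0.09, limma adjusted p = 0.0149). Wdr75, a WD40 protein of the same complex, was at 80.1 and 80.1 against 91.5 and 104 (log2 change -0.28, SE 0.10, limma adjusted p = 0.0736). Utp15 was at 107 and 101 against 113 and 121, both sets apart by less than the distance the test requires (limma adjusted p = 0.214). The large HEAT-repeat protein Heatr1 was at 207 and 231 against 227 and 292, with knockdown 2 above control 1 (limma adjusted p = 0.22). Utp4, also known as cirhin, had a log2 change of -0.12 (95% interval -0.32 to 0.09).

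UTP-B, which joins UTP-A on the precursor with the U3 snoRNP, had 3 of 5 members that fell (60%, beside 12.4% of all genes). Wdr3 (ENSMUSG00000033285, chromosome 3, 100138180 to 100162407, minus strand, GRCm38) was at 63 and 61.8 against 88.2 and 90.1 normalized counts. Its replicates lay close together in both groups, and it fell 1.42-fold (log2 change -0.51, SE 0.09, limma adjusted p = 0.0102). The exons of Wdr3 overlap those of Gdap2 and Spag17 on the opposite strand over 16.2% of their length. Wdr36 was at 96 and 102 against 135 and 133 and fell 1.35-fold (limma adjusted p = 0.0137), and here control 1 was the higher control. Utp6 was at 116 and 116 against 147 and 168 and fell 1.35-fold (limma adjusted p = 0.0188; 0.0511 with GC removed). Utp18, whose E-box is shown above, was at 78.8 and 73.7 against 83.1 and 100.5 (log2 change -0.26, SE 0.11, limma adjusted p = 0.137). Tbl3, another WD40 protein of the complex, was the other way round, at 92.8 and 88.5 against 80.3 and 81.7. Both libraries labelled knockdown lay above both controls, but Tbl3 was not called (log2 change 0.16, SE 0.09, limma adjusted p = 0.209). Its exons overlap those of Noxo1 on the opposite strand over 37.3% of their length, and no source used here says that the counting used strand, so the reads of such pairs cannot be told apart.

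The U3 snoRNP carries the protein Rrp9, and the MPP10 complex of Mphosph10, Imp3 and Imp4 holds U3 on the precursor RNA. Imp4 was at 42.5 and 42 normalized counts in knockdown 1 and 2, compared with 56.2 and 73.5 in control 1 and 2. It fell 1.51-fold, and the 2 controls were far apart (log2 change -0.59, SE 0.14, limma adjusted p = 0.0253). Mphosph10 was at 77.5 and 79.9 against 99.3 and 113 and fell 1.34-fold (limma adjusted p = 0.0236; 0.0943 with GC removed and 0.0552 with library size as the only scaling). Imp3, the third protein of that complex, was at 81.1 and 75.4 against 70.7 and 85.5, with control 1 the lowest and control 2 the highest (log2 change 0.00698, 95% interval -0.26 to 0.28; -0.10 with GC removed). Rrp9 was at 91 and 90.5 against 93.1 and 98 (log2 change -0.07, SE 0.08, limma adjusted p = 0.56) with a 95% interval -0.27 to 0.12, and with library size only its log2 change was 0.0492.

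Among the other factors of the small subunit processome, Rcl1, Bms1 and Utp3 fell. Rcl1 (ENSMUSG00000024785, chromosome 19, 29101375 to 29143929, plus strand, GRCm38) encodes a cyclase-like protein that binds the GTPase Bms1, and both are needed for the cuts that free the small subunit RNA. Rcl1 was at 60.3 and 53.4 normalized counts in knockdown 1 and 2, compared with 90.3 and 99.8 in control 1 and 2, well apart. It fell 1.66-fold, the largest fall among the members (log2 change -0.73, SE 0.10, limma adjusted p = 0.00665), and passed under each of the 17 alternatives run. Its partner Bms1 was at 197 and 192 against 234 and 266 and fell 1.28-fold (log2 change -0.36, SE 0.09, limma adjusted p = 0.032; 0.0774 with library size only and 0.0555 with upper-quartile scaling). Utp3 was at 160.3 and 163 against 196 and 203 and fell 1.24-fold (limma adjusted p = 0.0323), but it did not pass in DESeq2 (0.1) or with library size only (0.116).

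The remaining processome factors did not pass. Utp20, a scaffold protein of the particle, was at 259 and 270.5 against 224 and 248, with both libraries labelled knockdown above both controls (log2 change 0.17, SE 0.09, limma adjusted p = 0.196). With library size only it was called as higher (adjusted p = 0.0413), as it was without control 2 (adjusted p = 0.000868). Nol6 was at 266 and 275 against 224 and 288, between the 2 controls (log2 change 0.09, SE 0.12, 95% interval -0.20 to 0.38; -0.05 with GC removed). Utp11 was at 39.9 and 39.6 against 43.2 and 55.7, below both (log2 change -0.30, SE 0.14, limma adjusted p = 0.155). Utp14a, Nop14, its partner Noc4l and the export factor Rrp12 had log2 changes of -0.18, -0.18, -0.06 and -0.09. Noc4l and Rrp12 lay between the 2 controls in both libraries labelled knockdown.

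Pre-40S particles are the small subunits on their way out of the nucleus. Of their factors 2 of 4 fell (50%, beside 12.4% of all genes). Bysl (ENSMUSG00000023988, chromosome 17, 47599331 to 47611492, minus strand, GRCm38) encodes bystin, which stays on the particle until it nears export. It was at 171 and 167 normalized counts in knockdown 1 and 2, compared with 249 and 288 in control 1 and 2. Its groups were far apart, and it fell 1.58-fold (log2 change -0.66, SE 0.09, limma adjusted p = 0.00665), a call that held under each of the 17 alternatives run. The exons of Bysl overlap those of Ccnd3 on the opposite strand over 9.37% of their length, and Ccnd3 was at 234 and 209.5 against 447 and 523. Ltv1, an export factor of the particle, was at 50.1 and 50.9 against 65.1 and 73.1 and fell 1.36-fold (limma adjusted p = 0.0236). It did not pass with GC removed (0.0512), in DESeq2 (0.055) or with library size only (0.0546). Nob1, the nuclease that makes the last cut of the small subunit RNA, was at 93.8 and 89.8 against 99 and 112, lower in both but without a call (limma adjusted p = 0.175). The GTPase-like factor Tsr1 was at 199 and 212 against 186 and 225, inside the range of the controls (log2 change 0.00406, 95% interval -0.25 to 0.26), and 32.3% of its exon length overlaps Srr.

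Of the 12 factors of early large subunit particles, 1 fell, and this 8.33% is below the 12.4% of all genes. The gene was Nop16, at 63.4 and 62.3 normalized counts in knockdown 1 and 2, compared with 81 and 88 in control 1 and 2. Its groups did not overlap, and the fall was 1.34-fold (log2 change -0.42, SE 0.09, limma adjusted p = 0.021; 0.0512 in DESeq2 and 0.052 with library size only). The PeBoW complex of Pes1, Bop1 and Wdr12, which is needed to mature the large subunit RNA, had no member that passed. Bop1 came closest, at 117 and 117 against 136 and 166 (log2 change -0.36, SE 0.11, limma adjusted p = 0.0525), and it passed with GC removed (0.0142). Wdr12 was at 65.6 and 68.1 against 79.3 and 76.9, below both controls (log2 change -0.22, SE 0.09, limma adjusted p = 0.108). Pes1 differed least of the complex, with a log2 change of -0.04 (95% interval -0.22 to 0.15). Ebna1bp2, which works with Rrs1 in these particles, was at 121 and 117 against 126 and 139 (log2 change -0.16, SE 0.09, limma adjusted p = 0.226).

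Rrp1 and Rrp1b, a pair of paralogs, had fitted changes of opposite sign and neither passed. Rrp1 was at 253 and 252 against 222 and 246, so both libraries labelled knockdown were above both controls by a small margin (log2 change 0.11, SE 0.08, limma adjusted p = 0.379; log2 change -0.00632 with GC removed). Rrp1b had a log2 change of -0.14 (95% interval -0.38 to 0.09). The RNA methyltransferases Nop2, Ftsj3 and Rrp8 had log2 changes of -0.06, -0.11 and -0.24, and Noc3l and Rrs1 of -0.20 and -0.20. In Noc3l and Rrs1 control 1 lay just below the libraries labelled knockdown and control 2 far above them, as the plot of values by library shows, and without control 2 their log2 changes were 0.03 and 0.04.

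Of the 6 factors of later large subunit particles, 3 fell (50%, beside 12.4% of all genes). Nmd3 (ENSMUSG00000027787, chromosome 3, 69721985 to 69756373, plus strand, GRCm38), the adaptor that takes the large subunit through the nuclear pore, was at 38.1 and 31.5 normalized counts in knockdown 1 and 2 against 52.2 and 53.4. The groups were apart, knockdown 2 was the lowest, and the fall was 1.51-fold (log2 change -0.59, SE 0.12, limma adjusted p = 0.0173). Mdn1, a giant ATPase that strips assembly factors from the particle, was at 211 and 213 against 266 and 341. It fell 1.42-fold with widely spaced controls (log2 change -0.50, SE 0.12, limma adjusted p = 0.0269; log2 change -0.33 without control 2). Gnl3 encodes nucleostemin, a GTPase known for its high level in stem cells, and was at 114 and 108 against 144 and 155. It fell 1.34-fold (log2 change -0.43, SE 0.09, limma adjusted p = 0.016), while its paralog Gnl2 had a log2 change of -0.04 (95% interval -0.24 to 0.15). Nip7 was at 143 and 146 against 147 and 165 (limma adjusted p = 0.412). Mrto4, which holds the place of the ribosomal stalk, was at 53.9 and 52.9 against 50.7 and 52.7, with both libraries labelled knockdown just above both controls (log2 change 0.05, SE 0.09, limma adjusted p = 0.759; log2 change -0.06 with GC removed).

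Other genes of the pathway were taken from lists that leave out the members. Of 107 tested, 27 fell, 1 rose and 79 did not pass, with a median log2 change of -0.18 (25.2% and 0.935%, beside the 12.4% and 10.5% of all genes). The falls were spread over 2 of 13 genes of the H/ACA snoRNP and of snoRNP assembly, 7 of 29 other small subunit factors, 11 of 38 other large subunit factors, 3 of 13 genes of the RNA exosome and 4 of 14 of RNA polymerase I transcription. Dkc1, the pseudouridine synthase of the H/ACA snoRNP, was at 173 and 169 against 274 and 279 and fell 1.61-fold (limma adjusted p = 0.00379), and Ruvbl1, an ATPase of snoRNP assembly, fell 1.33-fold. Pno1, a partner of Nob1, fell 1.58-fold (90.6 and 93 against 149 and 142), and Utp14b, a retrogene copy of Utp14a, 2.34-fold from a low level (18.3 and 14.9 against 38.4 and 41.6). The large subunit GTPase Gtpbp4 fell 1.67-fold (111 and 107 against 177 and 189.6) and Rsl1d1 1.34-fold.

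Of the exosome, the nuclease complex that trims rRNA ends, Exosc9 and Exosc2 fell 1.59-fold and 1.44-fold. Rrn3, the factor that recruits RNA polymerase I to its promoter, fell 1.38-fold (261 and 242 against 346 and 348), and the polymerase subunit gene Twistnb 1.57-fold. Ttf1, which ends transcription by this polymerase, rose 1.29-fold (76.3 and 78.8 against 64.8 and 55.2, limma adjusted p = 0.0462). The limma adjusted p of the genes that fell lay between 0.00379 and 0.0428. Of the MYC family, Myc itself was at 69.9 and 68.2 against 93.2 and 136 and fell (log2 change -0.70, SE 0.16, limma adjusted p = 0.0268), with the controls far apart and control 2 the highest. Myc did not pass without a variance trend (0.0825) or without knockdown 2 (0.0582), and its log2 change was -0.43 without control 2 and -0.96 without control 1. Mycn was at 427 and 436 against 380.1 and 456, within the range of the controls (log2 change 0.05, SE 0.10, limma adjusted p = 0.744), and Mga fell 1.37-fold. Of the genes named from these lists, the call was lost for 6 without knockdown 1 (limma adjusted p between 0.0533 and 0.222), for 9 without knockdown 2 (between 0.0521 and 0.403) and for 7 without a variance trend (between 0.0559 and 0.111), while Dkc1, Utp14b, Pno1 and Gtpbp4 passed under all 17 alternatives.

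**Figure D3:**
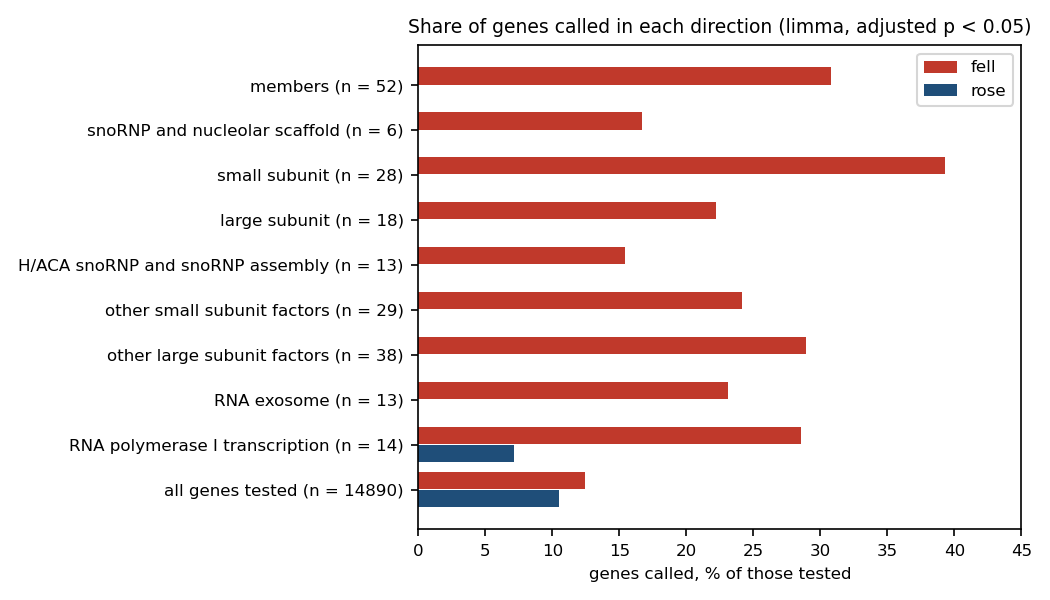
Bars give the share of genes called as lower (red) or higher (blue) by limma in the 52 members, in their 3 steps, in 5 lists of other pathway genes and in all genes tested. The red bars of the members and of each list exceed the 12.4% of all genes. Those of the H/ACA list (15.4%, 2 of 13 genes) and of the snoRNP and scaffold step (16.7%, 1 of 6) are near it. A blue bar appears only for RNA polymerase I transcription and for all genes.

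The members share features that bear on the counts. Their transcripts had a median GC content of 48.4%, against 50.7% over all genes tested, and the log2 change rose with GC content, with a Spearman's rho of 0.40 over the 52 members and 0.27 over all 14890 genes, which are not independent. All genes were split by GC content into 5 bins of like size. In the bin with the lowest GC content, 7 of 13 members fell beside 19.3% of all genes there, and the medians were -0.42 and -0.14. In the 2 bins with the highest GC content, 1 of 15 members fell, beside 8.8% and 5.74% of all genes there, so the count was near the background. The medians there were -0.06 and -0.22 beside 0.06 and 0.17 for all genes. In each of the 5 bins the median of the members was below that of all genes. With a loess curve on GC content removed from each library, 13 members fell in limma (12 of the 16, and Bop1), 0 rose and the median was -0.17, where 11.7% of all genes fell and 9.96% rose.

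**Figure D4:**
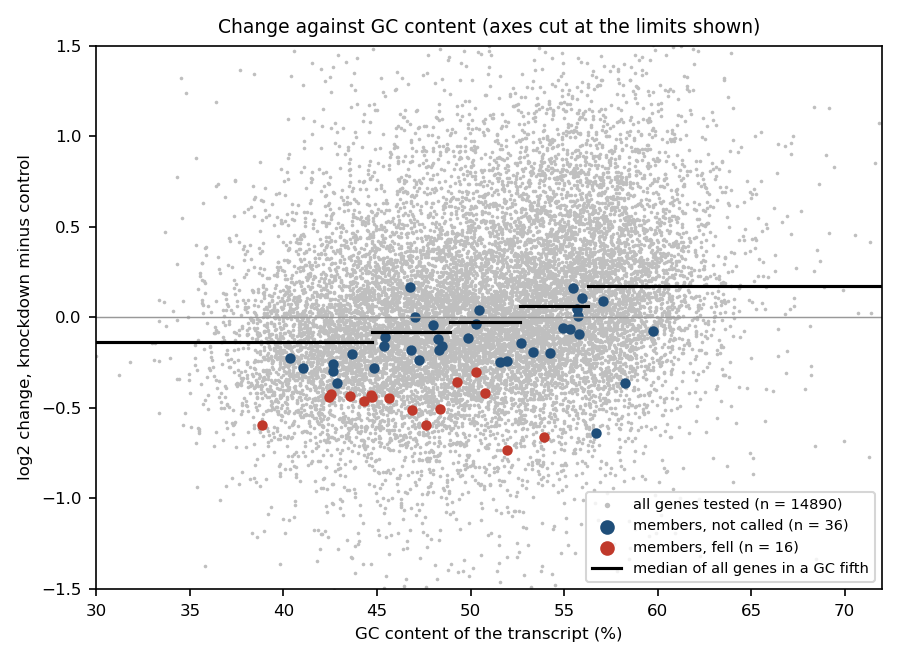
Each point is a gene, placed by the GC content of its longest protein-coding transcript and its log2 change, with all genes in grey, the 36 members that were not called in blue and the 16 that fell in red; black bars are the medians of all genes in each of 5 bins of GC content, and genes beyond the axis limits are not shown. The red points cluster at a lower GC content (median 46.2%) than the blue ones (median 50.1%), and the black bars climb from -0.14 to 0.17.

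Levels between genes can be set side by side only per length, here as the mean normalized count over the 4 libraries per kilobase of the longest protein-coding transcript. On that scale Npm1 (579), Ncl (306), Nop56 (123), Rrp1 (122) and Nolc1 (113) led the members, and Nmd3 (4.8) and Wdr12 (7.24) were lowest. The transcripts used for Nmd3 and Wdr12 have 9135 and 10012 bases, so these ranks depend on the transcript chosen. The reads of Npm1 and Nop56 are uncertain, as given above. The log2 change did not follow the level closely, with a Spearman's rho of 0.16 against mean normalized counts over the 52 members. Of the members, Nop56, Nop58, Ncl, Wdr43, Tsr1 and Gnl3 hold annotated snoRNA genes on their own strand, among them Snord57 and Snord110 in Nop56, Snord70 in Nop58 and Snord19 and Snord69 in Gnl3. Of these 6 hosts, Wdr43 and Gnl3 fell, where 12.4% of all genes fell.

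In the authors' deposited table, 16 of the 52 members had an adjusted p below 0.05 with a negative log2 fold change and 0 with a positive one. In that table, 12% of the 14890 genes tested here were lower by the same threshold. Of the 16 members that fell in limma, 14 were also called in the authors' deposited table, and the sign was the same for 52 of 52. Utp3 and Bms1 were not called there (authors' adjusted p = 0.255 and 0.157). Both comparisons rest on the same reads, so the shared sign is not separate evidence. Scaled by library size only, all genes had a median of 0.10 and the members one of -0.11, which leaves the members -0.21 from all genes, beside -0.22 as deposited. By that scaling 11 members fell and 1 rose, where 6.69% of all genes fell and 14.5% rose, and the libraries labelled knockdown lay below both controls for 23 members and above for 9.

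**Figure D5:**
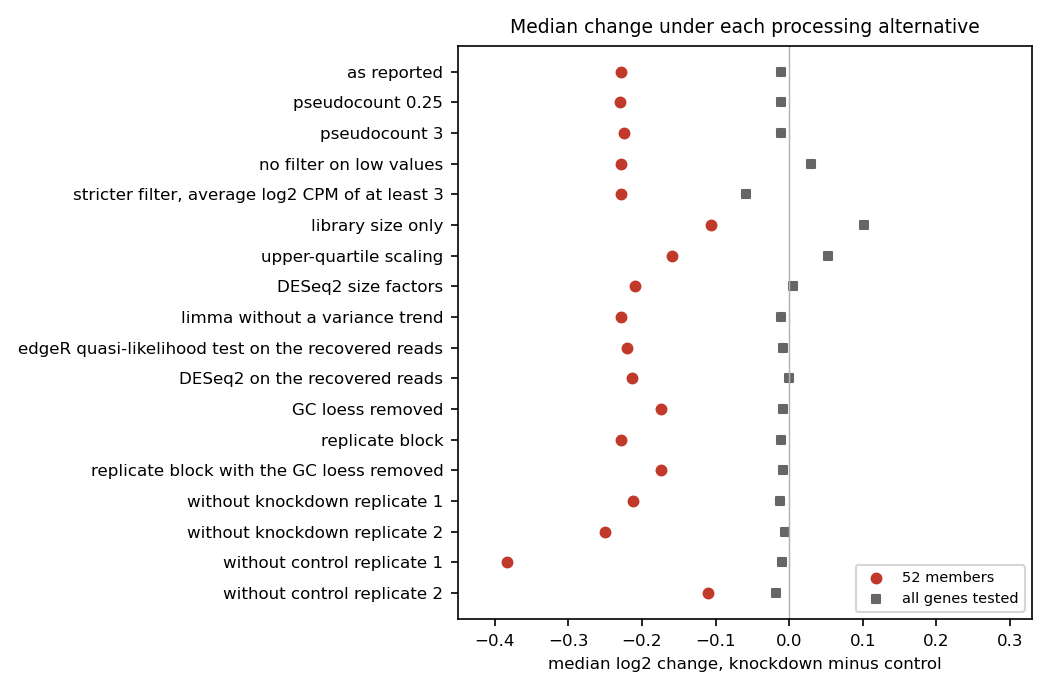
Rows are the processing alternatives, and points are the median log2 change of the 52 members (red circles) and of all genes tested (grey squares). The members' median runs from -0.38 without control 1 to -0.11 with library size only, and it lies below that of all genes in every row.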

How the data were processed

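Poly(A) RNA from 4 libraries, 2 labelled knockdown and 2 labelled control, was read as single 100 bp ends from 1 µg of total RNA, per the labels' protocols. The submitters' processing notes name Bowtie2 2.3.4.3, SAMtools 1.9, HTSeq 0.11.2, edgeR 3.26.8 and the build mm9, without roles. For the annotation release and the strand setting, the value is not given in the sources used here, and neither was inferred. The authors deposited a signal for each gene and library, which is its read count scaled by an effective library size. Per the file headers, the deposited table further gives log2 fold changes, a score (the likelihood ratio) and raw and adjusted p-values of the authors' own comparison. All values (100%) were whole multiples of 1 read per library within a tolerance of 0.001, so reads could be recovered.

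limma 3.58.1 in R 4.3.3 was fitted with a variance trend to log2(value + 1), as deposited, for the 14890 of 32592 genes that passed edgeR's expression filter on the recovered reads, with Benjamini-Hochberg adjustment and a threshold of 0.05. Fold changes are on that scale, which understates those of low genes. edgeR 4.0.16 and DESeq2 1.42.0 on the recovered reads, other pseudocounts, filters and scalings, GC removal, a replicate block and leaving out each library were alternatives. On simulated data with 200 of 14890 genes changed 2-fold, limma recovered 84% and called 9 unchanged genes. The falls of the members were smaller than 2-fold, and recovery of changes of that size was not simulated. The members and lists were chosen with earlier results of these data known. In each role, per-library values are given for the up to 4 members with the smallest p and for those with a change above 0; of each list, up to 2 called genes in each direction are named. Gene IDs were matched to GENCODE M21 (GRCm38), not the authors' build, and no coordinates were converted.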

Additional observations from a re-analysis of the deposited data

How the results depend on the processing

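With limma fitted without a variance trend, 3 members fell in place of 16 (0 of the snoRNP and scaffold proteins, 3 of the small and 0 of the large subunit), 8 other pathway genes fell and 0 rose in place of 27 and 1, 1932 genes were called in place of 3418, and Eif4a2, at a log2 change of 0.802, did not pass. With library size only, 1 member rose, 7 small subunit factors and 13 other pathway genes fell, the members' median was -0.106, and 23 members had both libraries labelled knockdown below both controls. Of the snoRNP and scaffold proteins, 2 fell with a pseudocount of 0.25, 2 with a stricter filter, 2 by edgeR, 2 by DESeq2 and 0 with GC removed. DESeq2 called 2219 genes, and by it or with no filter 0 other pathway genes rose. Leaving out each library in turn, the range was 2 to 41 for members that fell, 0 to 5, 2 to 22 and 0 to 14 by step, 0 to 4 for members that rose, -0.384 to -0.11 for the median, 4 to 65 and 0 to 10 for other pathway genes that fell and rose, 653 to 7724 for all genes and 0.56 to 1.04 for the log2 change of Eif4a2; the arm left with 1 library is assumed to vary like the other. The libraries share replicate numbers, but the deviations of same-numbered libraries had a correlation of 0.0356, and the labels do not tie a number to a batch. With the replicate number as a block, 20 members fell (3 of them snoRNP and scaffold proteins) and 2 other pathway genes rose. By that fit 4632 of all genes were called, of which 2380 fell and 2252 rose. With the block and GC removed together, 17 members fell and 2 other pathway genes rose, where 2202 of all genes fell and 2109 rose. The sign of the log2 change turned for 9 members with library size only, 4 with upper-quartile scaling and 5 with GC removed, with the replicate block or without it. With library size only it was 0.00514 in Utp4, 0.0492 in Rrp9, 0.0601 in Noc4l, 0.0292 in Rrp12, 0.0871 in Pes1, 0.0647 in Nop2, 0.0106 in Ftsj3, 0.0778 in Gnl2 and 0.0148 in Nip7. With upper-quartile scaling it was 0.00625 in Noc4l, 0.0331 in Pes1, 0.0105 in Nop2 and 0.024 in Gnl2. With GC removed it was -0.103 in Imp3, -0.0511 in Nol6, -0.00632 in Rrp1, 0.018 in Gnl2, -0.0635 in Mrto4 and -0.0318 in Mycn, the last of which is no member. It turned for 5 members without control 2 (Noc3l, Noc4l, Nop2, Rrp12, Rrs1), 4 without control 1 (Imp3, Nol6, Nop56, Tsr1), and for Imp3 without knockdown 1 and Tsr1 without knockdown 2. On leaving out each library the change ranged in Nop56 from -0.0937 to 0.177, Imp3 from -0.128 to 0.142, Nol6 from -0.091 to 0.269, Noc4l from -0.217 to 0.0928, Rrp12 from -0.335 to 0.149, Tsr1 from -0.133 to 0.141, Nop2 from -0.156 to 0.0389, Noc3l from -0.436 to 0.0283, Rrs1 from -0.436 to 0.0418 and Mycn from -0.0797 to 0.183. The cause was not tested. The 16 falls kept their direction under all 17 alternatives. The filters, the variance trend and the replicate block alone do not alter the log2 change. Leaving out a library could not turn the sign, since the groups did not overlap in any of the 16.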

Other observations

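The processed pseudogene Gm5812 holds 56.6% of the 100-base windows of the Fbl transcript, and its row was at 203 and 199 normalized counts in knockdown 1 and 2, compared with 251 and 275 in control 1 and 2, above the row of Fbl itself in every library. The protein-coding gene Tulp4 holds 59.4% of those windows, and its row was at 251 and 240 against 283 and 349. Gm14681, a processed pseudogene that shares sequence with Npm1, was at 383 and 374 normalized counts in knockdown 1 and 2, compared with 620.2 and 599.9 in control 1 and 2, so it was lower in both libraries labelled knockdown, as Npm1 was. How reads were divided between these rows was not tested.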
